A study of Mus musculus with 20 samples.

Results

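The genes described here are 10 amino acid transporters, taken as a list of named genes: *Slc7a5*, *Slc3a2*, *Slc7a11*, *Slc1a5*, *Slc38a1*, *Slc38a2*, *Slc38a9*, *Slc36a1*, *Slc7a1* and *Slc1a4*. They are 10 of the 45706 gene identifiers in the count files. All 10 had enough counts to be tested in tumors and in cells.

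The study removed cathepsin D, an aspartic protease of the lysosome, from mouse mammary carcinomas and counted RNA sequencing reads per gene in tumor tissue and in cultured tumor cells. The mice were kept on C57BL/6N and carried the polyoma middle T oncogene under the MMTV promoter (PyMT mice), which acts in mammary epithelium. Tumors were taken at 18 weeks of age from 4 *MMTV-cre;Ctsd*-/- mice and from 4 control mice competent for cathepsin D. Cells were spontaneously immortalized primary tumor cells, *Ctsd*+/+ or *MMTV-cre;Ctsd*-/-, grown in DMEM/F12 with 1% FCS, with 3 cultures in each of 4 groups.

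The groups named 1% FCS had been in this low-serum medium for 10 days, and those named 1% FCS LT for 12 weeks. Each genotype of cells is 1 line, so line and genotype cannot be told apart, and p-values in cells measure the spread between cultures. In tumors the cre recombinase was also driven by MMTV, so other cells of the tissue kept the gene. The LR code in the sample labels was 1 for all control tumors and another for all *Ctsd*-/- tumors, so code and genotype cannot be told apart there. In cells each LR code held both genotypes.

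Counts on genes were 62327541, 61243159, 61064696 and 49725437 in control tumors 1 to 4, and 63812753, 62102167, 64291587 and 59897728 in *Ctsd*-/- tumors 1 to 4. In 1% FCS they were 35392894, 36703548 and 37942237 in *Ctsd*+/+ cells and 39645445, 36625113 and 33622831 in *Ctsd*-/- cells. The LT counts were 37603299, 37359605 and 39593037 in *Ctsd*+/+ cells and 39330353, 36913179 and 40239762 in *Ctsd*-/- cells. Control tumor 4 had the fewest counts of the tumors, the lowest scaling factor (0.793) and the most reads that overlapped several genes (15.6%).

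Cells take up amino acids through carriers of several families, which differ in their substrates and in what they couple transport to. Sodium-coupled carriers such as ASCT2 and SNAT2 bring in small neutral amino acids and glutamine. Exchangers such as LAT1 and xCT bring in large neutral amino acids or cystine in return for an amino acid that leaves, and both are held at the membrane by the heavy chain 4F2hc. Other carriers sit in the lysosomal membrane, where they move the amino acids that proteases release from protein, and some of them act in the sensing of amino acids by mTORC1. Tumor cells often hold much of LAT1, ASCT2 and xCT.

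Levels are given as CPM, the counts of a gene scaled by the total counts of the sample and the TMM method, or as RPKM, which is CPM per kilobase of exon and allows genes to be set beside each other. Log2 fold changes and p-values come from edgeR's quasi-likelihood test, two-sided, with p-values adjusted over all genes tested by the Benjamini-Hochberg method. A gene is said to be called where its adjusted p was below 0.05. For tumors, genes with an unadjusted p below 0.1, the study's own threshold there, are also counted.

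*Ctsd* itself was measured first, as a check of the genotype labels. It was at 1860.2, 2617, 1781 and 2532.5 CPM in control tumors and at 797, 360.2, 1295 and 1233 CPM in *Ctsd*-/- tumors. All 4 *Ctsd*-/- tumors lay below all 4 controls, but much of the RNA was still present, and the difference was not called (log2 fold change −1.25, adjusted p = 0.463). In 1% FCS, *Ctsd* was at 4199, 2858 and 1266.5 CPM in *Ctsd*+/+ cells and at 192, 141 and 131 CPM in *Ctsd*-/- cells. In 1% FCS LT it was at 1627, 1667 and 1895 CPM in *Ctsd*+/+ cells and at 123, 114 and 151 CPM in *Ctsd*-/- cells. The labels were borne out in all 12 cultures, with reads of the gene left at a low level in the *Ctsd*-/- line (log2 fold change −4.16 and −3.74, adjusted p = 4.34e-06 and 1.24e-05).

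In RPKM, *Slc3a2* stood at the top of the 10 genes in control tumors (59.2 ± 10.9, mean ± SD, n = 4 tumors). *Slc7a5* (14.0 RPKM) and *Slc38a2* (12.4 RPKM) came next, and *Slc1a5* (7.16 RPKM) and *Slc1a4* (6.37 RPKM) followed. *Slc38a1*, *Slc36a1* and *Slc7a1* lay between 1.22 and 2.70 RPKM, *Slc38a9* at 0.840 RPKM, and *Slc7a11* at 0.0524 RPKM was close to absent. In *Ctsd*-/- tumors *Slc3a2* was again first (70.1 RPKM), and *Slc1a5* was second with a wide spread (37.3 ± 30.8 RPKM, n = 4 tumors).

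In *Ctsd*+/+ cells in 1% FCS the genes of both chains of LAT1 led, *Slc7a5* at 73.8 ± 15.0 RPKM and *Slc3a2* at 67.6 ± 7.99 RPKM (mean ± SD, n = 3 cultures), a pair that did not differ beyond its spread. *Slc1a4* (47.8 RPKM), *Slc38a2* (45.6 RPKM), *Slc1a5* (26.8 RPKM), *Slc7a1* (23.6 RPKM) and *Slc38a1* (13.2 RPKM) followed. In *Ctsd*-/- cells in 1% FCS, *Slc3a2* was at 102 ± 9.78 RPKM and *Slc1a5* at 4.87 ± 0.546 RPKM. The group means of *Slc7a11* and *Slc38a9* lay between 0.448 and 1.32 RPKM in the 4 groups of cells.

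**Figure D1:**
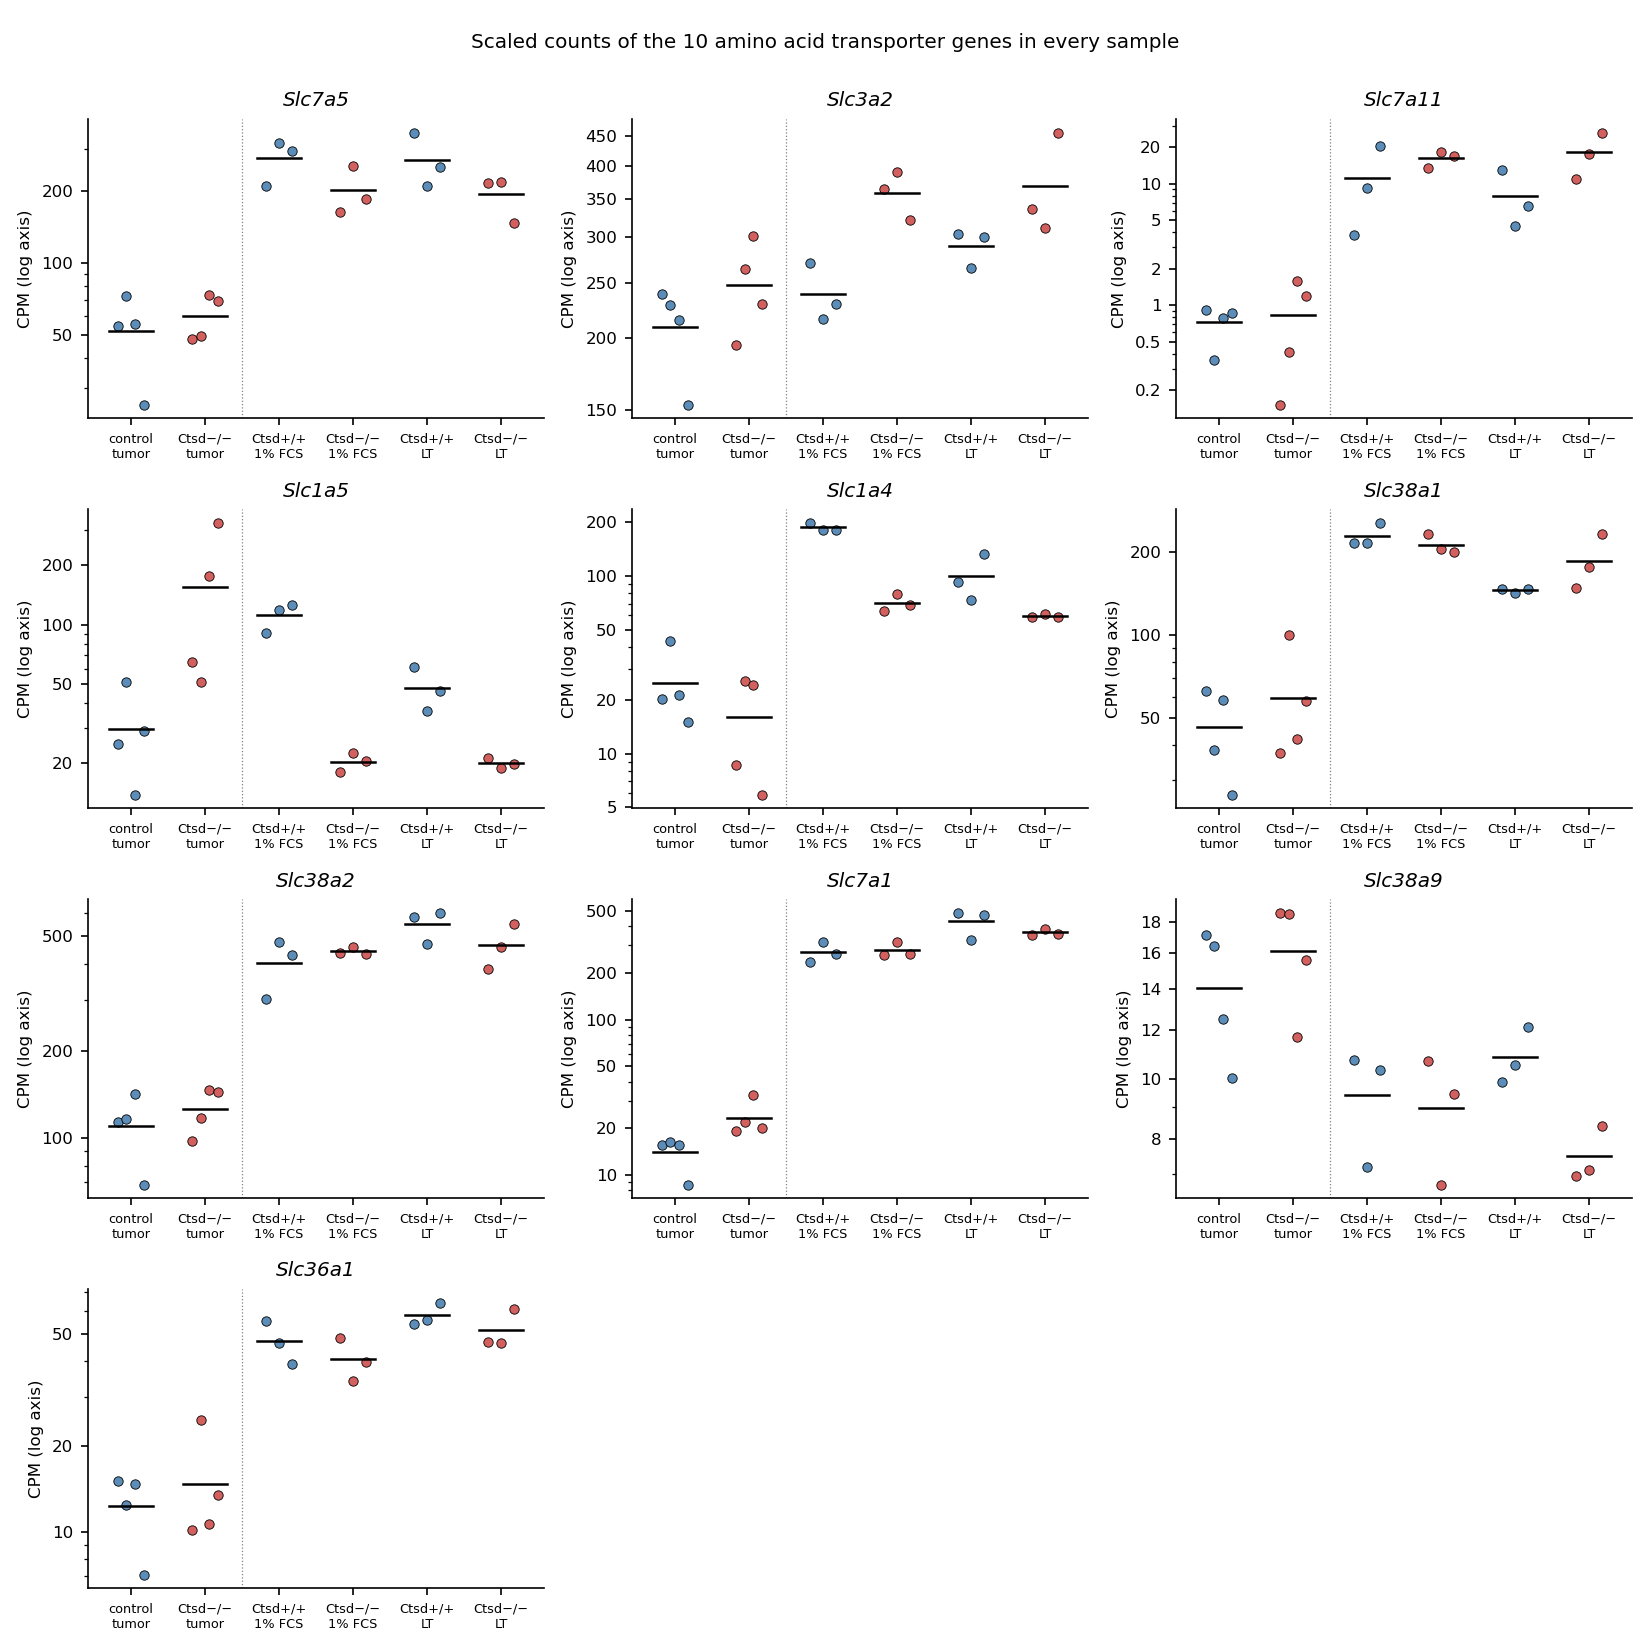
Level of each of the 10 transporter genes in each sample, in CPM on a log axis, by group; points are samples and bars are group means. *Slc1a5* lay between 91.1 and 125 CPM in *Ctsd*+/+ cells in 1% FCS and between 18.0 and 22.6 CPM in *Ctsd*-/- cells.

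The sodium-coupled exchangers of small neutral amino acids were lower in *Ctsd*-/- cells than in *Ctsd*+/+ cells at both culture times. *Slc1a5*, which encodes the glutamine carrier ASCT2, was 5.503-fold lower in *Ctsd*-/- than in *Ctsd*+/+ cells after 10 days in 1% FCS and 2.40-fold lower after 12 weeks. *Slc1a4*, which encodes its relative ASCT1, a carrier of alanine, serine and cysteine, was 2.65-fold lower after 10 days and lower after 12 weeks too. In whole tumors *Slc1a5* had its higher values in the *Ctsd*-/- group, and *Slc1a4* did not.

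In 1% FCS, *Slc1a5* was at 91.1, 119 and 125 CPM in *Ctsd*+/+ cells and at 18.0, 22.6 and 20.4 CPM in *Ctsd*-/- cells. The 3 *Ctsd*-/- cultures lay close together and far below every *Ctsd*+/+ culture (log2 fold change −2.46, SE 0.187, 95% confidence interval −2.87 to −2.05, adjusted p = 1.39e-06). After 12 weeks it was at 61.4, 36.8 and 46.2 CPM in *Ctsd*+/+ cells and at 21.2, 19.0 and 19.9 CPM in *Ctsd*-/- cells. Again the groups did not overlap, over a shorter distance (log2 fold change −1.27, SE 0.181, adjusted p = 0.000204). The 4 groups stood in the order 112 ± 18.2, 48.1 ± 12.4, 20.3 ± 2.28 and 20.01 ± 1.12 CPM (mean ± SD, n = 3), for *Ctsd*+/+ 1% FCS, *Ctsd*+/+ 1% FCS LT, *Ctsd*-/- 1% FCS and *Ctsd*-/- 1% FCS LT. Only the last pair overlapped. Over the 12 weeks *Slc1a5* fell 2.32-fold in *Ctsd*+/+ cells (adjusted p = 0.000199), while in *Ctsd*-/- cells the log2 fold change was −0.02 (adjusted p = 0.975). The difference between these changes, which is the interaction of genotype and culture time, was 1.19 on the log2 scale (SE 0.253, 95% confidence interval 0.64 to 1.75, adjusted p = 0.00411).

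*Slc1a4* in 1% FCS was at 199.6, 182 and 182 CPM in *Ctsd*+/+ cells and at 63.8, 79.4 and 69.1 CPM in *Ctsd*-/- cells. Every *Ctsd*-/- culture was below every *Ctsd*+/+ culture, and the spread within each group was small beside the distance between them (log2 fold change −1.41, SE 0.178, adjusted p = 5.69e-05). After 12 weeks it was at 92.0, 73.7 and 134 CPM in *Ctsd*+/+ cells and at 58.8, 60.9 and 58.6 CPM in *Ctsd*-/- cells, still without overlap (log2 fold change −0.75, SE 0.175, adjusted p = 0.00531). The order of the groups was that of *Slc1a5*, at 188 ± 10.3, 99.8 ± 30.8, 70.8 ± 7.95 and 59.4 ± 1.30 CPM (mean ± SD, n = 3), and here the middle pair overlapped. *Slc1a4* fell over the 12 weeks in *Ctsd*+/+ cells (log2 fold change −0.91, adjusted p = 0.00126) and was not called in *Ctsd*-/- cells (−0.25, adjusted p = 0.496). The interaction was 0.66 (95% confidence interval 0.12 to 1.2, adjusted p = 0.0633). It was called by 6 of 20 alternatives: DESeq2, limma-voom, no filter on low counts, the LR code of 8 cultures, the code as a covariate, and leaving out *Ctsd*+/+ 1% FCS LT replicate 3 (0.926, adjusted p = 0.00252), the culture with 134 CPM. The adjusted p ranged from 0.00252 to 0.127 over the 20.

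One LR code held 8 of the 12 cultures, with 2 cultures in each group, and the other codes held 1 culture of a group. Within that code the log2 fold change of *Slc1a5* between genotypes was −2.507 in 1% FCS and −1.289 in 1% FCS LT, and that of *Slc1a4* was −1.291 and −0.468, all called. The interaction within it was 1.217 for *Slc1a5* and 0.823 for *Slc1a4*, both called.

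In tumors *Slc1a5* was at 25.0, 51.5, 13.8 and 29.1 CPM in controls and at 64.7, 51.1, 177 and 329 CPM in *Ctsd*-/- tumors. *Ctsd*-/- tumors 3 and 4 were far above all others, and the groups overlapped only through control tumor 2 and *Ctsd*-/- tumor 2. The log2 fold change was 2.38 (SE 0.61, 95% confidence interval 1.03 to 3.73) and was not called (adjusted p = 0.401). Without *Ctsd*-/- tumor 4 it was 1.71. DESeq2 called it (adjusted p = 0.00591), and over 14 alternatives, of which that was the only one to do so, the adjusted p ranged from 0.00591 to 0.919. *Slc1a4* was at 20.4, 42.9, 21.6 and 15.2 CPM in controls and at 8.67, 25.6, 24.4 and 5.89 CPM in *Ctsd*-/- tumors. These groups overlapped (log2 fold change −0.63, adjusted p = 0.688).

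Markers of fat cells also stood highest in *Ctsd*-/- tumors 3 and 4. The 7 adipocyte markers, of which *Fabp4* was the most abundant, summed to 274, 862, 211 and 2161 CPM in control tumors and to 2808, 1069.8, 6477 and 10834 CPM in *Ctsd*-/- tumors. All 7 had an unadjusted p below 0.1, each higher in *Ctsd*-/- tumors, against 8.44% of all genes higher and 8.27% lower at that threshold, and 0 were called; 1 marker was at 0 in control tumor 1. The 5 endothelial markers, led by *Pecam1*, summed to 79.7, 94.4, 45.04 and 46.3 CPM in controls and to 60.8, 94.0, 234 and 224 CPM in *Ctsd*-/- tumors, with 4 of 5 at an unadjusted p below 0.1. The part of both lists in the *Slc1a5* values was not tested, and in whole tissue fewer cells of a type and less RNA per cell cannot be told apart.

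**Figure D2:**
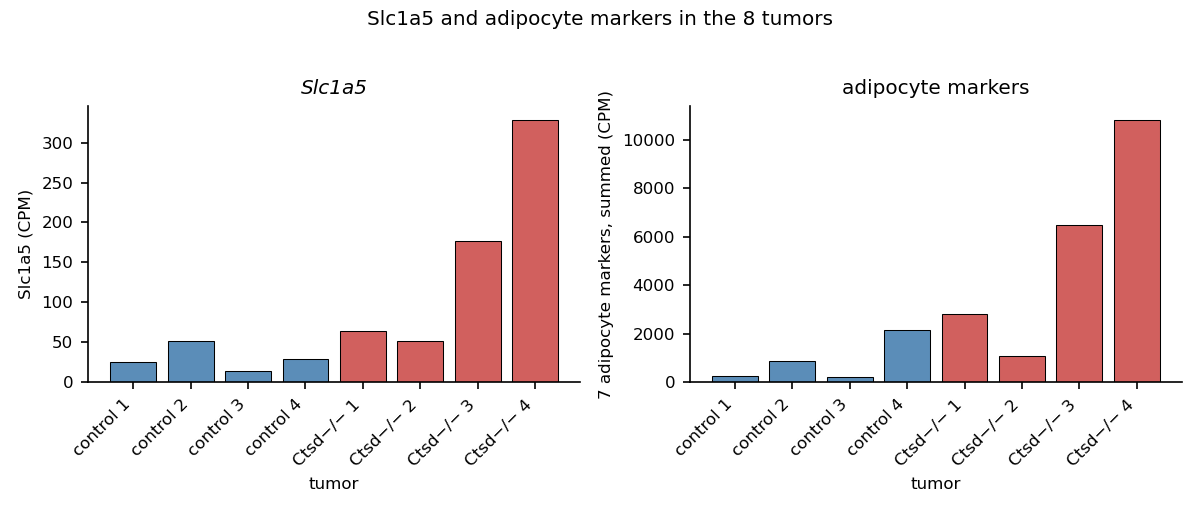
*Slc1a5* in CPM and the summed CPM of 7 adipocyte markers in each of the 8 tumors, as bars that start at 0. *Ctsd*-/- tumors 3 and 4 had 177 and 329 CPM of *Slc1a5* beside 6477 and 10834 CPM of the markers.

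The other cell types were measured with their own lists in the same tumors. The 7 epithelial markers, with *Krt18* the most abundant in all tumors but *Ctsd*-/- tumor 4, where it was *Krt19*, summed to 5517, 6240.3, 4728 and 8012 CPM in controls and to 4075, 4394, 6247 and 5077 CPM in *Ctsd*-/- tumors. The 5 macrophage markers summed to 175, 331, 165 and 107 CPM in controls and to 219.7, 175, 200 and 183 CPM in *Ctsd*-/- tumors. Neither list had a marker with an unadjusted p below 0.1. The 6 fibroblast markers lay between 612 and 2541 CPM in controls and between 1182 and 2104 CPM in *Ctsd*-/- tumors, with 1 of 6 at that threshold, and the 7 lymphocyte markers summed to between 14.0 and 24.9 CPM over the 8 tumors, with 1 of 7, counts near the shares of all genes.

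In cells all lists but that of lymphocytes, which had no marker tested, had markers called between genotypes, where of all genes 23.5% were called higher and 25.1% lower in 1% FCS and 20.5% and 19.1% in 1% FCS LT. The 7 epithelial markers summed to 915, 1462 and 1724 CPM in *Ctsd*+/+ cells in 1% FCS and to 7317, 9676 and 10120 CPM in *Ctsd*-/- cells, and all 7 were called, 6 of them higher and *Krt14* lower. After 12 weeks they summed to 4778, 4572 and 4302 CPM in *Ctsd*+/+ cells and to 5201, 5664 and 6015 CPM in *Ctsd*-/- cells, with 3 of 7 called, *Krt18* higher (log2 fold change 0.779) and *Cdh1* and *Krt14* lower (−1.055 and −3.776). The 6 fibroblast markers summed to 1159, 3045 and 1634 CPM in *Ctsd*+/+ cells in 1% FCS, with *Pdgfrb* or *Col1a1* the most abundant, and to 11.9, 5.04 and 5.59 CPM in *Ctsd*-/- cells, where all 4 that could be tested were called lower. In 1% FCS LT they summed to between 3.03 and 8.19 CPM in *Ctsd*+/+ cells and to 99.8, 14.4 and 9.51 CPM in *Ctsd*-/- cells. *Pdgfra* and *Pdgfrb* were called higher there, the reverse of 1% FCS, and *Pdgfrb* made up 84.9 CPM of the first sum. The *Ctsd*+/+ cells in 1% FCS, where *Slc1a5* and *Slc1a4* were highest, were thus the group with the lowest epithelial and the highest fibroblast sums. That fibroblast sum came mostly from *Col1a1* and *Pdgfrb* (means 1437 and 468 CPM), and *Pdgfra* had a mean of 37.8 CPM. *Col1a2*, *Dcn* and *Lum* were low or absent there (means 2.27, 0.742 and 0 CPM). The part of these markers in the transporter values was not tested. The 5 macrophage markers summed to 56.0, 59.6 and 64.2 CPM in *Ctsd*+/+ cells in 1% FCS LT, with *Csf1r* the most abundant, and to 9.12, 13.6 and 25.2 CPM in *Ctsd*-/- cells. There 3 of the 3 that could be tested were called, *Csf1r* and *Cd163* lower and *Cd68* higher, and in 1% FCS 1 of 3, *Cd68*, with sums of 6.63 to 14.2 CPM in *Ctsd*+/+ and 11.4 to 27.2 CPM in *Ctsd*-/- cells. In *Ctsd*+/+ cells in 1% FCS LT the mean of *Csf1r* was 55.2 CPM, and those of *Cd68* and *Cd163* were 3.52 and 1.04 CPM. *Mrc1* and *Adgre1* were near 0 there (0.106 and 0.0169 CPM), so that sum was mostly *Csf1r*. The part of this list was not tested either. Adipocyte markers summed to at most 6.43 CPM in a culture, with 2 to 6 of the 7 at 0, and of 2 tested *Fabp4* was called higher at both times and *Pparg* in 1% FCS. Endothelial markers summed to at most 7.01 CPM, and of 3 tested *Cdh5* was called higher at both times and *Kdr* in 1% FCS LT. Lymphocyte markers summed to at most 0.279 CPM.

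The system L transporter LAT1 exchanges leucine and other large neutral amino acids, and of the genes of its chains 1 was called between genotypes. *Slc3a2*, which encodes the heavy chain 4F2hc, was 1.504-fold higher in *Ctsd*-/- than in *Ctsd*+/+ cells in 1% FCS. *Slc7a5*, which encodes the light chain that carries the amino acids, had lower mean values in *Ctsd*-/- cells at both times and was not called. In tumors neither gene was called.

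*Slc3a2* in 1% FCS was at 270.2, 216 and 229 CPM in *Ctsd*+/+ cells and at 364, 390.3 and 322 CPM in *Ctsd*-/- cells. The groups did not overlap (log2 fold change 0.59, SE 0.150, 95% confidence interval 0.26 to 0.92, adjusted p = 0.00681; 0.678 within the LR code of 8 cultures, also called). After the long culture it was at 304, 265 and 300.4 CPM in *Ctsd*+/+ cells and at 337, 311 and 457 CPM in *Ctsd*-/- cells. Here too all *Ctsd*-/- values were above all *Ctsd*+/+ values, but the difference was not called (log2 fold change 0.34, adjusted p = 0.0889). It was called without *Ctsd*-/- 1% FCS LT replicate 2 (0.458) and with the LR code as a covariate (0.325), but within the LR code of 8 cultures it was 0.186 (adjusted p = 0.3), and over the alternatives it ranged from 0.163 to 0.458, with an adjusted p from 0.0481 to 0.377. The interaction was −0.245 (adjusted p = 0.418), so the data do not tell the 2 times apart. In tumors it was at 239, 229, 215 and 153 CPM in controls and at 194, 264, 301 and 229 CPM in *Ctsd*-/- tumors, with overlap (log2 fold change 0.24, adjusted p = 0.721).

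*Slc7a5* in 1% FCS was at 210.5, 316 and 294 CPM in *Ctsd*+/+ cells and at 163, 254 and 186 CPM in *Ctsd*-/- cells. At the later time it was at 350.5, 210.4 and 251 CPM in *Ctsd*+/+ cells and at 217, 217 and 147 CPM in *Ctsd*-/- cells. Every neighbouring pair in the order of the 4 groups overlapped, and the largest group mean was 1.41 times the smallest (log2 fold change between genotypes −0.45 and −0.48, adjusted p = 0.143 and 0.131). Of 15 alternatives only the LR code as a covariate called the second (−0.502). It was −0.369 within the LR code of 8 cultures (adjusted p = 0.257) and ranged from −0.633 to −0.247, with an adjusted p of up to 0.464. In tumors it was at 54.3, 72.5, 55.4 and 25.5 CPM in controls and at 48.1, 49.7, 73.1 and 69.5 CPM in *Ctsd*-/- tumors (log2 fold change 0.21, adjusted p = 0.82).

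*Slc7a11* encodes xCT, which also pairs with 4F2hc and brings in cystine in return for glutamate. It was the lowest of the 10 genes in both tumor groups, with 61, 23, 47 and 34 counts in controls and 10, 27, 105 and 72 counts in *Ctsd*-/- tumors. The difference was not called there (log2 fold change 0.20, 95% confidence interval −1.286 to 1.675, adjusted p = 0.93), and its sign changed with limma-voom. In 1% FCS it was at 3.81, 9.16 and 20.4 CPM in *Ctsd*+/+ cells and at 13.5, 18.3 and 16.9 CPM in *Ctsd*-/- cells, and *Ctsd*+/+ cultures spanned the other group. In the LT groups it was at 12.9, 4.502 and 6.54 CPM in *Ctsd*+/+ cells and at 10.99, 17.7 and 26.4 CPM in *Ctsd*-/- cells, with overlap in 1 culture of each group (log2 fold change 1.203, adjusted p = 0.097). This last difference was called by DESeq2 (1.184), with no filter on low counts (1.216) and without *Ctsd*+/+ 1% FCS LT replicate 1 (1.736). It was not called by the other 12 alternatives, and within the LR code of 8 cultures it was 0.724 (adjusted p = 0.31), the lowest of them.

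*Slc7a1* encodes CAT1, the carrier of arginine and lysine, and was called higher over culture time in *Ctsd*+/+ cells and not called between genotypes. In *Ctsd*+/+ cells it was at 234, 317 and 265 CPM in 1% FCS and at 487, 323 and 471 CPM in 1% FCS LT. The groups did not overlap, and the gene was 1.57-fold higher after 12 weeks (log2 fold change 0.65, SE 0.163, adjusted p = 0.00654). Within the LR code of 8 cultures this was 0.476 and was not called (adjusted p = 0.0899, the highest of the alternatives run). In *Ctsd*-/- cells it was at 260.1, 314 and 263 CPM in 1% FCS and at 348, 384 and 356 CPM in 1% FCS LT. These did not overlap either, but the change was not called (log2 fold change 0.38, adjusted p = 0.248), and the interaction was −0.27 (adjusted p = 0.41). Between genotypes the log2 fold change was 0.04 in 1% FCS and −0.24 in 1% FCS LT.

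In tumors *Slc7a1* was at 15.7, 16.3, 15.7 and 8.70 CPM in controls and at 19.1, 22.0, 32.7 and 20.2 CPM in *Ctsd*-/- tumors. Control tumor 4 was far below the other controls, and every *Ctsd*-/- tumor was above every control. The log2 fold change was 0.74 (95% confidence interval 0.15 to 1.33, adjusted p = 0.543), and the adipocyte sums given above were higher in the same group; their part in this was not tested.

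The system A carriers SNAT1 and SNAT2 move small neutral amino acids, glutamine among them, together with sodium. *Slc38a1*, which encodes SNAT1, was at 214, 215 and 254 CPM in *Ctsd*+/+ cells in 1% FCS and at 146, 141 and 147 CPM in 1% FCS LT. It fell 1.57-fold over the 12 weeks, without overlap (log2 fold change −0.65, adjusted p = 0.00346; −0.705 within the LR code of 8 cultures). In *Ctsd*-/- cells it was at 231, 205 and 199 CPM in 1% FCS and at 147, 175 and 232 CPM in 1% FCS LT, groups that overlapped (log2 fold change −0.20, adjusted p = 0.529). The interaction was 0.46 (adjusted p = 0.121) and was called only without *Ctsd*-/- 1% FCS LT replicate 1 (0.597), the culture with 147 CPM. Between genotypes in 1% FCS LT the log2 fold change was 0.35 (adjusted p = 0.0784), and of 15 alternatives it was called only without that culture (0.495); within the LR code of 8 cultures it was 0.166 (adjusted p = 0.339), and the lowest value was 0.158, without *Ctsd*-/- 1% FCS LT replicate 3. *Slc38a2*, which encodes SNAT2, lay between 303 and 604 CPM in all 12 cultures. The main edgeR fit did not call it in any comparison. Its log2 fold change over time in *Ctsd*+/+ cells was 0.46 (adjusted p = 0.0515). This change was called by 4 alternatives: DESeq2, limma-voom, and edgeR with no filter on low counts (0.449) or with the replicate number as a block (0.476). It was also called without either of 2 cultures, *Ctsd*+/+ 1% FCS replicate 2 (0.602) or *Ctsd*+/+ 1% FCS LT replicate 2 (0.564). The other 9 did not call it, and it was lowest within the LR code of 8 cultures (0.224, adjusted p = 0.251). In tumors *Slc38a1* ranged from 26.6 to 62.6 CPM in controls and from 37.6 to 99.8 CPM in *Ctsd*-/- tumors, and *Slc38a2* from 68.7 to 142 CPM and from 97.6 to 146 CPM.

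*Slc38a9* and *Slc36a1* encode carriers of the lysosomal membrane, a sensor of lysosomal arginine for mTORC1 and the proton-coupled carrier PAT1. The main edgeR fit called neither in any comparison. *Slc38a9* was at 9.89, 10.5 and 12.1 CPM in *Ctsd*+/+ cells in 1% FCS LT and at 6.97, 7.11 and 8.39 CPM in *Ctsd*-/- cells. These groups did not overlap (log2 fold change −0.54, adjusted p = 0.0583). The difference was called by 5 of 15 alternatives, among them DESeq2 (−0.552) and edgeR with other settings. The adjusted p ranged from 0.0229 to 0.159 over the 15. In 1% FCS its range was 7.21 to 10.7 CPM in *Ctsd*+/+ and 6.74 to 10.7 CPM in *Ctsd*-/- cells, and the interaction was −0.46 and was not called. *Slc36a1* lay between 34.1 and 64.3 CPM in all cultures, and its change over time in *Ctsd*+/+ cells (0.307, adjusted p = 0.156) was called within the LR code of 8 cultures (0.366) and with the code as a covariate (0.339), and not by the other 13 alternatives (lowest 0.192). In tumors *Slc38a9* ranged from 10.0 to 18.6 CPM and *Slc36a1* from 7.05 to 24.8 CPM over both groups, which overlapped.

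**Figure D3:**
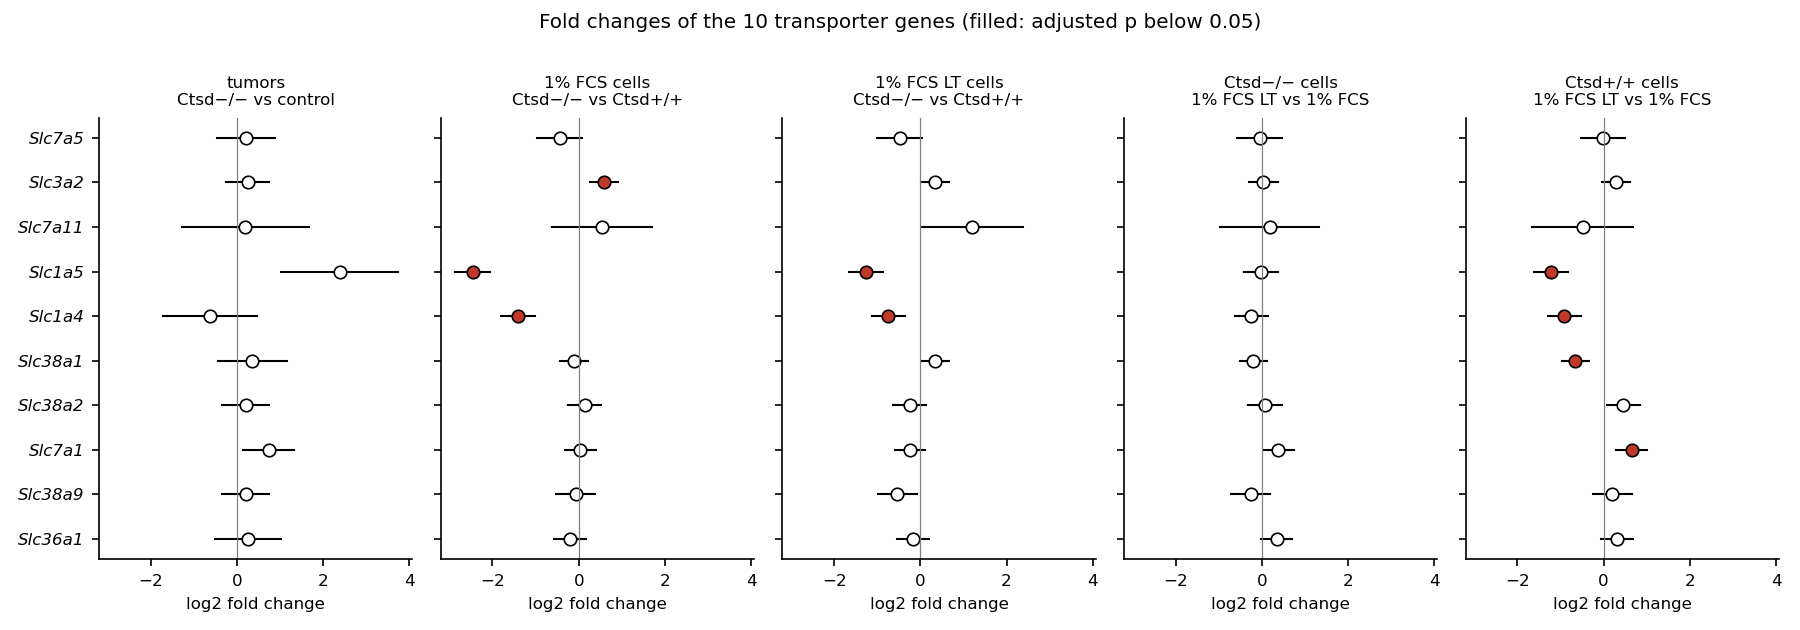
Log2 fold change of each of the 10 genes, with 95% confidence intervals. The comparisons are between genotypes in tumors, in 1% FCS and in 1% FCS LT, and over culture time in each genotype of cells. The interaction is not drawn. *Slc1a5* was at −2.46 between genotypes in 1% FCS and at 2.38 in tumors, where its interval ran from 1.03 to 3.73.

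Counted over the 10 genes, the comparison of tumors, which asks what loss of cathepsin D in the epithelium does to the tumor, had 0 called by edgeR, where 0.00537% of all genes tested were called in either direction. At an unadjusted p below 0.05 there were 2, *Slc1a5* and *Slc7a1*, beside 1665 of 18617 genes tested. Limma-voom called 0, and DESeq2 called 1, *Slc1a5*. In this and the other comparisons the shares of all genes are edgeR's, and none is given for the other tools. By edgeR, 2 were higher and 0 lower at an unadjusted p below 0.1, against 8.44% and 8.27% of all genes. The log2 fold change was positive in 9 of 10, with a median of 0.227 beside 0.001 over all genes. Control tumor 4 was the lowest control for 8 of the 10 genes, and *Ctsd*-/- tumor 1 the lowest of its group for 7. The groups did not overlap for 1 of 10 genes, and for 4.15% of all.

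Between genotypes in 1% FCS, 1 of the 10 genes was called higher and 2 lower, against 23.5% and 25.1% of all genes tested. In 1% FCS LT, edgeR called 0 higher and 2 lower, against 20.5% and 19.1%. An unadjusted p below 0.05 was found by edgeR for 6 of either direction, beside 7250 of 15178 genes. The counts called by edgeR were thus near those of all genes or below them. In 1% FCS LT, DESeq2 called 1 higher and 3 lower and limma-voom 0 and 2, with no share of all genes to set beside them. Groups did not overlap for 3 and 5 of 10 genes at the 2 times, and for 55.2% and 54.2% of all genes. The medians of the 10 log2 fold changes were −0.089 and −0.242, beside 0 and 0.014 over all genes.

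Over culture time, edgeR called 0 of the 10 genes in *Ctsd*-/- cells, where 1.57% of all genes were called higher and 0.810% lower. DESeq2 and limma-voom called 0 as well, and 1 gene, *Slc7a1*, had an unadjusted p below 0.05, beside 2727 of 15178. In *Ctsd*+/+ cells 1 was called higher and 3 lower, against 23.0% and 23.4% of all genes. These 3 were *Slc1a5*, *Slc1a4* and *Slc38a1*. For the interaction, which the study used to take out the effect of long culture, edgeR called 1 gene higher and 0 lower, against 16.1% and 14.1%. DESeq2 and limma-voom each called 2 higher and 0 lower, without a share of all genes beside these counts. By edgeR, 3 of the 10 had an unadjusted p below 0.05, beside 6214 of 15178 genes. The comparisons in cells share groups of cultures, so their counts do not stand apart from each other.

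Across the 12 cultures the 2 SLC1 genes varied together (Pearson r of log2 CPM 0.937), and *Slc3a2* ran opposite to both (−0.831 with *Slc1a5* and −0.755 with *Slc1a4*). *Slc38a2* and *Slc7a1* had an r of 0.791, and *Slc7a5* and *Slc3a2*, the chains of LAT1, one of −0.646. The cultures fall into 4 groups, and these values are descriptions. Of all genes tested in cells, *Slc1a5* was most like *Nespas* (r = 0.988), *Slc7a6* (0.987) and *Gria3* (0.984). *Slc1a4* was most like *Gpx8* (0.973), *Invs* (0.969) and *9330159F19Rik* (0.967), and *Slc3a2* most like *Lipt1* (0.943), *Neu1* (0.942) and *Spin2c* (0.938). The nearest gene was *Ddx28* for *Slc7a5* (0.920), *Pfdn4* for *Slc7a11* (0.938), *Stam* for *Slc38a1* (0.935), *Hpdl* for *Slc38a2* (0.891), *Edrf1* for *Slc38a9* (0.960), *Ndnf* for *Slc36a1* (0.909) and *Star* for *Slc7a1* (0.899).

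Other amino acid transporters of the plasma membrane, a list of 23 genes, reached larger log2 fold changes than the 10 genes. In cells 16 could be tested, of which 3 were called higher and 6 lower between genotypes in 1% FCS, and 4 higher and 6 lower in 1% FCS LT, with medians of −0.45 and −0.549. Of all genes tested, 23.5% were called higher and 25.1% lower in 1% FCS and 20.5% and 19.1% in 1% FCS LT, and these shares, with those given above for the other comparisons, stand beside the counts of the lists below as well. *Slc7a6*, whose protein also pairs with 4F2hc, was at 97.96, 122 and 108 CPM in *Ctsd*+/+ cells in 1% FCS and at 43.1, 42.4 and 44.5 CPM in *Ctsd*-/- cells. After 12 weeks it was at 80.4, 63.1 and 72.3 CPM in *Ctsd*+/+ cells and at 42.9, 47.7 and 47.5 CPM in *Ctsd*-/- cells. Like *Slc1a5*, it was lower in all *Ctsd*-/- cultures at both times (log2 fold change −1.33 and −0.64, adjusted p = 3.07e-06 and 0.00078), with an interaction of 0.69 (adjusted p = 0.00621). *Slc7a6* was named for its high Pearson r with *Slc1a5* over these same cultures, so a pattern like that of *Slc1a5* follows from the choice.

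*Slc6a14*, whose protein carries neutral and cationic amino acids, was at or near 0 in *Ctsd*+/+ cells. It had 0, 0 and 0 counts in *Ctsd*+/+ cells in 1% FCS and 261, 267 and 158 counts in *Ctsd*-/- cells. After 12 weeks there were 1, 3 and 5 counts in *Ctsd*+/+ cells and 252, 377 and 387 counts in *Ctsd*-/- cells. The reverse held for *Slc6a15*, a carrier of branched-chain amino acids and proline. It was at 22.3, 17.6 and 23.3 CPM in *Ctsd*+/+ cells in 1% FCS against 31, 4 and 9 counts in *Ctsd*-/- cells, and at 17.1, 19.4 and 9.84 CPM against 2.23, 1.26 and 0.653 CPM in 1% FCS LT (log2 fold change −3.48, adjusted p = 0.000251).

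The glutamate carrier *Slc1a3* had 11.2, 2.69 and 0.811 CPM in *Ctsd*+/+ cells in 1% FCS and 1, 0 and 1 counts in *Ctsd*-/- cells. *Slc7a2*, a carrier of cationic amino acids like *Slc7a1*, was at 29.8, 16.2 and 3.17 CPM in *Ctsd*+/+ cells in 1% FCS and had 7, 1 and 4 counts in *Ctsd*-/- cells and 9, 4 and 6 counts in *Ctsd*+/+ cells in 1% FCS LT. For *Slc1a3* and *Slc7a2* the *Ctsd*+/+ cultures were far from each other. Over culture time in *Ctsd*+/+ cells 8 of the list were called higher and 3 lower, with a median of 0.487, or 0.18 where genes with at most 3 counts in each culture of a group are set at the bound those counts allow. *Slc43a2*, a carrier of large neutral amino acids, was at 19.5, 15.2 and 8.61 CPM in 1% FCS and at 94.0, 147 and 54.1 CPM in 1% FCS LT (log2 fold change 2.77, adjusted p = 0.000666). In *Ctsd*-/- cells 1 of the list was called over time, *Slc16a10*, from 8.69, 8.27 and 7.66 CPM to 13.2, 14.2 and 15.5 CPM (log2 fold change 0.80, adjusted p = 0.0303), with a median of 0.499 in the list. The interaction was called for 5 higher and 4 lower (median −0.236).

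**Figure D4:**
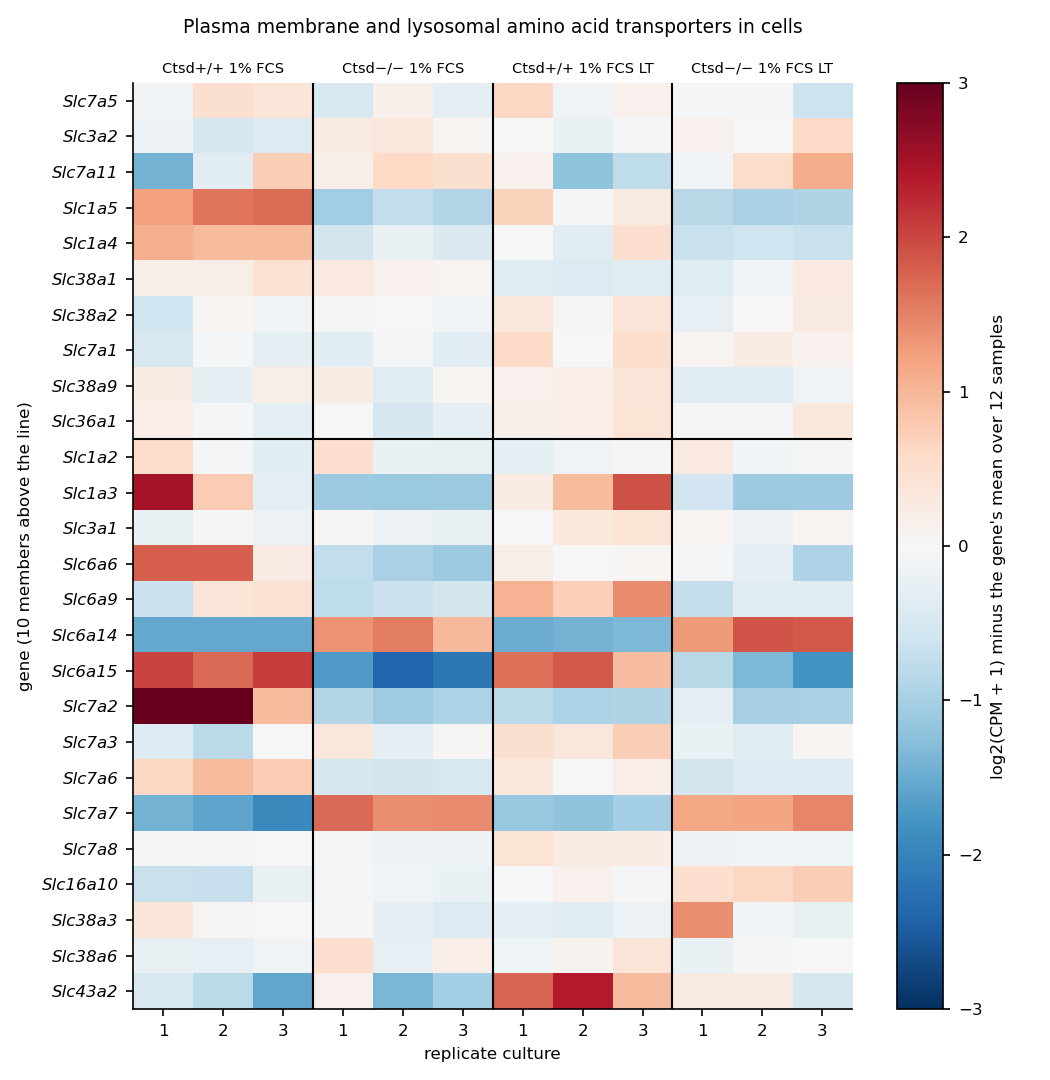
Color shows log2 of CPM plus 1 less the mean of the gene over all cultures, cut off at both ends of the scale. Lines are the transporter genes described here and the other plasma membrane transporters tested in cells, and columns are cultures. Colors thus compare cultures within a gene and not levels between genes. *Slc6a14* had 0 counts in all 3 *Ctsd*+/+ cultures in 1% FCS, and *Slc7a6* and *Slc1a5* were lower in all *Ctsd*-/- cultures than in the *Ctsd*+/+ cultures of the same time.

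In tumors 21 of the 23 could be tested, of which edgeR called 0, and 6 were higher and 0 lower at an unadjusted p below 0.1, against 8.44% and 8.27% of all genes (median 0.266). *Slc36a2*, whose protein carries glycine and proline with protons, was at 6.02, 17.4, 2.83 and 7.71 CPM in controls and at 46.8, 35.3, 140.2 and 212 CPM in *Ctsd*-/- tumors (log2 fold change 3.68, adjusted p = 0.292). *Slc7a10*, whose protein carries small neutral amino acids, was at 1.01, 3.37, 0.647 and 2.23 CPM in controls and at 8.004, 5.34, 25.5 and 28.6 CPM in *Ctsd*-/- tumors (log2 fold change 3.22, adjusted p = 0.292). *Slc43a1*, a carrier of branched-chain amino acids, was at 3.12, 8.77, 1.59 and 5.28 CPM in controls and at 13.1, 9.93, 19.1 and 32.3 CPM in *Ctsd*-/- tumors (log2 fold change 1.99, adjusted p = 0.416). For these 3, as for *Slc1a5* and the adipocyte sums, *Ctsd*-/- tumors 3 and 4 held the highest values, and the part of the fat markers was not tested. In cells *Slc36a2* and *Slc7a10* had at most 1 count in a culture.

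Other transporters of lysosomes and vesicles, 12 genes of which 10 were tested in each material, were lower in *Ctsd*-/- cells where called after 12 weeks. In 1% FCS 2 were called higher and 3 lower, against 23.5% and 25.1% of all genes (median −0.036), and in 1% FCS LT 0 higher and 5 lower, against 20.5% and 19.1% (median −0.515). *Slc36a4*, which encodes a carrier of proline and tryptophan, was at 36.8, 35.6 and 29.9 CPM in *Ctsd*+/+ cells in 1% FCS and at 6.76, 5.42 and 5.44 CPM in *Ctsd*-/- cells. In 1% FCS LT it was at 45.2, 47.4 and 33.9 CPM in *Ctsd*+/+ cells and at 16.6, 14.3 and 9.10 CPM in *Ctsd*-/- cells. It was far lower in the *Ctsd*-/- line at both times (log2 fold change −2.54 and −1.66, adjusted p = 3.83e-06 and 9.58e-05), and in that line it rose with time (1.18, adjusted p = 0.0198). The interaction was 0.88 (adjusted p = 0.0432).

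*Ctns*, which encodes the lysosomal exporter of cystine, was at 158, 248 and 279 CPM in *Ctsd*+/+ cells in 1% FCS LT and at 50.3, 55.1 and 61.2 CPM in *Ctsd*-/- cells. The groups were far apart (log2 fold change −2.04, adjusted p = 0.00324), while in 1% FCS they overlapped, at 121, 65.8 and 31.3 CPM and at 83.8, 45.2 and 34.3 CPM (interaction −1.62, adjusted p = 0.0628). *Slc38a10* was at 448, 489 and 342.5 CPM in *Ctsd*+/+ cells in 1% FCS and at 209.5, 183 and 189 CPM in *Ctsd*-/- cells (log2 fold change −1.14, adjusted p = 6.92e-05), and *Slc38a7* was higher there (0.773, adjusted p = 0.0121). Over time 1 of the list was called higher and 0 lower in *Ctsd*-/- cells and 2 higher and 0 lower in *Ctsd*+/+ cells (medians 0.055 and 0.183), and the interaction was called for 1 higher and 1 lower (median −0.136). In tumors 0 were called, and 2 were higher and 0 lower at an unadjusted p below 0.1 (median 0.186). The adipocyte and endothelial sums given above were highest among *Ctsd*-/- tumors, and their part in this and the tumor counts below was not tested.

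Mitochondrial amino acid carriers, 9 genes with 9 tested in tumors and 8 in cells, had 0 called higher and 2 lower in 1% FCS, and 2 higher and 2 lower in 1% FCS LT (medians −0.068 and 0.052). *Slc25a12*, which encodes a carrier of aspartate and glutamate, was lower in *Ctsd*-/- cells in 1% FCS (log2 fold change −1.06, adjusted p = 0.000394) and higher in 1% FCS LT (0.66, adjusted p = 0.0107). It fell in *Ctsd*+/+ cells over time (−1.59, adjusted p = 2.55e-05), and the interaction was 1.72 (adjusted p = 0.000347). Over time 0 were called in *Ctsd*-/- cells, and 1 higher and 3 lower in *Ctsd*+/+ cells (medians −0.011 and −0.008), with 2 higher and 1 lower for the interaction (median 0.074). In tumors *Slc25a22*, which encodes a glutamate carrier, was at 27.3, 30.4, 25.5 and 22.0 CPM in controls and at 35.9, 41.6, 45.6 and 56.0 CPM in *Ctsd*-/- tumors (log2 fold change 0.77, adjusted p = 0.401). It was 1 of 3 genes higher at an unadjusted p below 0.1, with 0 lower and 0 called (median −0.018), and it too was highest in the 2 tumors with the highest adipocyte and endothelial sums, whose part was not tested.

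When amino acids run short, the kinase GCN2 and the factor ATF4 turn on a set of genes to which several of the 10 transporters belong. Of 27 amino acid response genes all were tested in cells, where 7 were called higher and 4 lower between genotypes in 1% FCS and 1 higher and 4 lower in 1% FCS LT (medians 0.237 and 0.047). The factor *Atf3* and the pseudokinase *Trib3* were higher in *Ctsd*-/- cells in 1% FCS (log2 fold change 1.78 and 1.25, adjusted p = 0.00467 and 0.0161), and the secreted hormone *Stc2* was lower (−4.39, adjusted p = 0.00513). In 1% FCS LT *Chac1*, which encodes an enzyme that degrades glutathione, was higher (1.46, adjusted p = 0.0191) and the stress regulator *Nupr1* was lower (−2.79, adjusted p = 3.5e-05). Over time 1 was called higher and 0 lower in *Ctsd*-/- cells, and 5 higher and 2 lower in *Ctsd*+/+ cells (medians −0.23 and −0.037), with 1 higher and 5 lower for the interaction (median −0.149). In tumors 26 were tested, 0 called, and 4 were higher and 1 lower at an unadjusted p below 0.1 (median 0.165), among them *Chac1*, at 2.22, 3.00, 4.06 and 4.92 CPM in controls and at 5.06, 6.49, 9.29 and 7.91 CPM in *Ctsd*-/- tumors (log2 fold change 1.02, adjusted p = 0.494). These values were also highest in *Ctsd*-/- tumors 3 and 4, and the part of the fat and endothelial markers was not tested.

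The 20 cytosolic aminoacyl-tRNA synthetases, which load amino acids onto tRNA, had 6 called higher and 1 lower in 1% FCS and 3 higher and 2 lower in 1% FCS LT (medians 0.241 and 0.014). *Yars* was lower at both times (log2 fold change −0.94 and −0.99, adjusted p = 4.87e-05 and 4.77e-05), and *Dars* was higher in 1% FCS (0.65, adjusted p = 0.00023). Over time 0 were called in *Ctsd*-/- cells, and 2 higher and 2 lower in *Ctsd*+/+ cells (medians −0.15 and 0.049), with 0 higher and 3 lower for the interaction (median −0.181). In tumors 0 were called, and 4 were higher and 0 lower at an unadjusted p below 0.1 (median 0.198).

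The route from cystine to glutathione, 12 genes with 11 tested in cells, had 1 called higher and 3 lower in 1% FCS and 3 higher and 4 lower in 1% FCS LT (medians 0.262 and 0.045). *Gclc*, which encodes the catalytic subunit of the first enzyme of glutathione synthesis, was lower in *Ctsd*-/- cells at both times (log2 fold change −1.26 and −1.02, adjusted p = 3.57e-05 and 0.000234). *Cbs*, which encodes an enzyme that leads to cysteine, was lower in 1% FCS (−2.32, adjusted p = 0.00617), and *Gsr*, for glutathione reductase, in 1% FCS LT (−1.16, adjusted p = 0.00206). *Gpx4*, for a glutathione peroxidase, was higher in 1% FCS (0.76, adjusted p = 0.000103), and *Chac1*, also of this list, in 1% FCS LT as given above. Over time 0 were called in *Ctsd*-/- cells, and 3 higher and 1 lower in *Ctsd*+/+ cells (medians 0.098 and 0.156), with 1 higher and 2 lower for the interaction (median −0.227). In tumors 12 were tested, 0 called, and 1 was higher and 0 lower at an unadjusted p below 0.1 (median 0.17).

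Genes of glutamine and glutamate use, 14 in all and tested in both materials, had 6 called higher and 0 lower in 1% FCS and 1 higher and 1 lower in 1% FCS LT (medians 0.4 and −0.006). *Prodh*, which encodes proline dehydrogenase, was at 1.83, 1.71 and 3.04 CPM in *Ctsd*+/+ cells in 1% FCS and at 17.6, 18.4 and 18.6 CPM in *Ctsd*-/- cells (log2 fold change 3.05, adjusted p = 3.77e-06). *Gpt2* and *Glul*, for an alanine aminotransferase and glutamine synthetase, were higher there too (1.06 and 0.95, adjusted p = 0.0142 and 0.00785). Over time 0 were called in *Ctsd*-/- cells, and 4 higher and 0 lower in *Ctsd*+/+ cells (medians −0.167 and 0.364), with 0 higher and 4 lower for the interaction (median −0.418). In tumors 0 were called, and 3 were higher and 0 lower at an unadjusted p below 0.1 (median 0.166), beside the higher fat and endothelial markers, whose part was not tested.

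The 15 genes listed as amino acid sensors of mTORC1 also include Rag GTPases and Ragulator subunits, which bring mTORC1 to the lysosome. Of the 15, 3 were called higher and 1 lower in 1% FCS and 5 higher and 1 lower in 1% FCS LT (medians −0.036 and 0.158). *Sesn1*, whose relative SESN2 binds leucine, was lower in *Ctsd*-/- cells in 1% FCS (log2 fold change −1.09, adjusted p = 0.00166). *Castor1*, which encodes a sensor of arginine, was higher in 1% FCS LT (1.05, adjusted p = 0.0026), fell in *Ctsd*+/+ cells over time (−1.63, adjusted p = 0.000115) and had an interaction of 1.49 (adjusted p = 0.00361). Over time 0 were called in *Ctsd*-/- cells, and 2 higher and 3 lower in *Ctsd*+/+ cells (medians −0.064 and −0.111), with 4 higher and 0 lower for the interaction (median 0.033). In tumors 0 were called, and 2 were higher and 1 lower at an unadjusted p below 0.1 (median −0.136).

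Promoters of the genes were searched for the letters TGATGNAA, a form of the element bound by ATF4 with its partners, on both strands (TTNCATCA on the other). The 250 bases before the start of transcription were found for 7 of the 10 genes in the RefSeq promoters of GRCm38.p6, and not for *Slc7a5*, *Slc1a5* and *Slc38a1*. Of 32851 promoters, 1134 (3.45%) held the letters, and among the 7 genes *Slc7a11* did, once on each strand. Its promoter is at chr3:50443614-50443863 on the minus strand, and its matches, in capitals, lie 66 to 59 and 47 to 40 bases before the start. The promoters of *Slc1a4* (chr11:20332714-20332963, minus strand) and *Slc3a2* (chr19:8713898-8714147, minus strand), the called genes between genotypes for which the sequence was found, are shown beside it. The *Slc3a2* window lies inside the gene as annotated in GENCODE M21 (chr19:8706882-8723369). It is thus before an inner RefSeq start, and the bases before the outermost annotated start were not searched. *Slc1a4* has TTGCATCA beginning 4 bases before the start and reaching past it, outside the printed bases. With the 50 bases after the start included, 1304 promoters (3.97%) held a match. A match describes the letters and is not a site of binding, and the absence of a match says only that the letters are not in this window.
Slc7a11: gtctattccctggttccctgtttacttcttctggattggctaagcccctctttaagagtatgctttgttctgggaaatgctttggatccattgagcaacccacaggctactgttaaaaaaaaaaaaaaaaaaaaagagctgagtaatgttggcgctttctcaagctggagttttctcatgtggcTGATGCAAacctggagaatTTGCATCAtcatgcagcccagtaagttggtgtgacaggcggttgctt
Slc1a4: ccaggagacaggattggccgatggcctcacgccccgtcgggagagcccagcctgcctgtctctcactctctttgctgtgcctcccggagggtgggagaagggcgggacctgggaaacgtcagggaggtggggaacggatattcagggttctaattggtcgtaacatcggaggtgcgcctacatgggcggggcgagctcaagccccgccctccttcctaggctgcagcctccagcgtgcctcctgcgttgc
Slc3a2: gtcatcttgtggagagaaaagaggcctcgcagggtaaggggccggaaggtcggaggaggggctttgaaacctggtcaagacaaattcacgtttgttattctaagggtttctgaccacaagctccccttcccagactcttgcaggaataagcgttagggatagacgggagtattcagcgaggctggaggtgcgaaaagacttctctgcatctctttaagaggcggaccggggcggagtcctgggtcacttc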

How the data were processed

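Raw counts per gene were used as deposited by the authors, who used Trimmomatic for trimming and STAR for mapping to GRCm38 (mm10) and did not normalize. Symbols and exon lengths were taken from GENCODE M21. Reads that map to several places or overlap several genes are not in the counts. Counts regardless of strand were used in tumors, where 52.8% to 53.7% of stranded counts lay on the opposite strand, and counts on the opposite strand in cells, where 97.1% to 97.3% did. In tumors, RNA of a gene and of its opposite strand are thus not separated.

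Tumors and cells were fitted apart in R 4.3.3 with edgeR 4.0.16 (filterByExpr, TMM, glmQLFit, glmQLFTest), with all 12 cultures in 1 fit. This left 18617 genes in tumors and 15178 in cells, with a common biological coefficient of variation of 0.429 and 0.217. DESeq2 1.42.0 and limma 3.58.1 (voom) were run as alternatives. Likeness used log2 CPM with a prior count of 2.

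The members and lists were chosen with earlier results of these data known. Genes of each list were named by a rule: up to 3 per comparison with the largest absolute log2 fold change among those called (in tumors, with an unadjusted p below 0.1), with groups that do not overlap and a mean log2 CPM over 0; some of them are left out of the text, and 1 gene of the lists is not reported here. For each of the 10 genes, those with the highest Pearson r over the 12 cultures were also named. The lists were other plasma membrane transporters, other lysosomal and vesicular transporters, mitochondrial carriers, amino acid response genes, cytosolic aminoacyl-tRNA synthetases, the route from cystine to glutathione, glutamine and glutamate use, amino acid sensors of mTORC1, and markers of epithelial cells, adipocytes, macrophages, lymphocytes, endothelial cells and fibroblasts.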

Additional observations from a re-analysis of the deposited data

Results flagged for a closer look

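*Slc7a1* in control tumor 4 was at 8.70 CPM, far below the other 3 control tumors. Its gap to the nearest of them was 0.92 of the whole range of the group, above the critical value of Dixon's test for 4 samples. The test was run on 20 combinations of gene and tumor group, and chance gives about 1 in 20.

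The genotype difference of *Slc1a5* was not the same at both culture times. It was 1.19 higher, on the log2 scale, in 1% FCS LT than in 1% FCS, by the test of the difference itself (adjusted p = 0.00411, edgeR).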

How the results depend on the processing

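Alternatives were DESeq2, limma-voom, DESeq2's size factors in edgeR, no filter on low counts, the replicate number as a block, the other strand column, only the 2 groups compared (cells), the LR code of 8 cultures alone, the LR code as a covariate, an absolute log2 fold change above 1, and leaving out each replicate. Every called difference of the 10 genes kept its direction and, before any threshold on the fold change, its call in these, with the exception of *Slc7a1* over time in *Ctsd*+/+ cells within the LR code of 8 cultures (0.476, adjusted p = 0.0899). In the comparisons of cells the median log2 fold change of all genes lay between −0.024 and 0.035 under the alternatives. *Slc7a11* in tumors had 10 to 105 counts and a 95% confidence interval of −1.286 to 1.675.

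Counts of called genes changed as follows between fits that left out no single replicate, and the cause was not tested. In tumors DESeq2 called 1 higher (0 by edgeR), and with the replicate block 1 was lower at an unadjusted p below 0.1 (0 without). In 1% FCS LT 1 was higher with DESeq2, with no filter and with the LR code as covariate (0 otherwise). There 4 were lower with the covariate and 3 with DESeq2, DESeq2's size factors, the replicate block and only the 2 groups (2 otherwise), the gene added in each being *Slc38a9*, with *Slc7a5* the other under the covariate. Over time in *Ctsd*+/+ cells 2 were higher with DESeq2, limma-voom, no filter, the replicate block and the covariate (1 otherwise). The interaction was called higher for 2 with DESeq2, limma-voom, no filter, the LR code of 8 cultures and the covariate (1 otherwise), the added gene being *Slc1a4*. With an absolute log2 fold change above 1, the counts were 0 higher in 1% FCS (1 without the threshold), 1 lower in 1% FCS LT (2), and 0 higher (1) and 1 lower (3) over time in *Ctsd*+/+ cells; this threshold by its construction can only lower a count. With a replicate left out, 0 to 1 were higher and 2 lower in 1% FCS LT, and the higher counts were 1 to 2 over time in *Ctsd*+/+ cells and 1 to 2 for the interaction.

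Signs changed for values that were not called, and the cause was not tested. In tumors *Slc7a11* was −0.20 with limma-voom and −0.104 with the replicate block. Within the LR code of 8 cultures, in 1% FCS *Slc38a2* was −0.016 and *Slc7a1* −0.013, over time in *Ctsd*-/- cells *Slc3a2* was −0.137, *Slc7a11* −0.29 and *Slc38a2* −0.082, and for the interaction *Slc7a5* was 0.102 and *Slc36a1* −0.026. With the covariate, over time in *Ctsd*-/- cells *Slc3a2* was −0.026, *Slc7a11* −0.332 and *Slc38a2* −0.145. With a replicate left out, the ranges were, in tumors, −0.31 to 0.555 for *Slc7a11*, −0.014 to 0.415 for *Slc7a5*, −0.024 to 0.528 for *Slc38a1* and −0.115 to 0.401 for *Slc36a1*. In 1% FCS they were −0.026 to 0.28 for *Slc38a2*, −0.233 to 0.097 for *Slc38a9* and −0.061 to 0.162 for *Slc7a1*. Over time in *Ctsd*-/- cells they were −0.183 to 0.153 for *Slc7a5*, −0.103 to 0.061 for *Slc1a5*, −0.148 to 0.146 for *Slc3a2*, −0.174 to 0.446 for *Slc7a11* and −0.073 to 0.19 for *Slc38a2*. Over time in *Ctsd*+/+ cells they were −0.247 to 0.138 for *Slc7a5* and −1.011 to 0.304 for *Slc7a11*. For the interaction they were −0.19 to 0.195 for *Slc7a5*, −0.112 to 0.177 for *Slc36a1* and −0.135 to 1.192 for *Slc7a11*.

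Whether samples with the same number form pairs was checked by correlating their deviations from the group means. In tumors no sample was closest to the one with its own number (r from −0.303 to −0.0075). Between genotypes r was 0.362, 0.1 and 0.299 for replicates 1 to 3 in 1% FCS and 0.07, 0.0018 and 0.119 in 1% FCS LT, and at both times replicates 1 and 3 of *Ctsd*-/- cells were closest to their own number and replicate 2 was not. Over culture time r was 0.192, 0.0766 and 0.173 in *Ctsd*-/- cells, where all 3 were closest to their own number, and −0.143, −0.0326 and −0.0621 in *Ctsd*+/+ cells, where none was. The LR code joined some of these cultures, since both 1% FCS cultures numbered 1 had a code to themselves, as had both LT cultures numbered 3, and these pairs had the highest r between genotypes at their time. The other 8 cultures shared 1 code, and the labels tie none of them by number. The fits reported took the numbers as names. With the replicate block *Slc1a5* was 2.169 in tumors, −2.459 in 1% FCS and −1.263 in 1% FCS LT, and the interaction of *Slc1a5* was 1.196.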
